A study of Mus musculus with 3 samples.

Results

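Pvt1 is a long non-coding RNA gene, and Myc, which encodes a transcription factor that drives growth and proliferation, is its upstream neighbour on the same strand of mouse chromosome 15. Described here are the peaks of DNA captured with Pvt1 probes over Pvt1, over Myc and over the interval between them. The cells were C2C12, a mouse myoblast line. Members were taken by position alone: every listed peak that touched Pvt1 (62037986 to 62378096, GRCm38), Myc (61985391 to 61990374) or the 47611 bp between them. This gave 8 of the 962 peaks of the odd probes and 8 of the 714 peaks of the even probes, and all of them touched Pvt1.

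In chromatin isolation by RNA purification, or ChIRP, biotinylated DNA oligonucleotides are hybridised to an RNA in fixed chromatin and pulled down with streptavidin, and the DNA that comes along is sequenced. Capture with 2 probe sets that bind alternating sites of the RNA is the usual control, since DNA held by the RNA should be recovered by both sets, and DNA held by a probe by only one. A probe is complementary to the RNA and, where its target lies within 1 exon, also to 1 DNA strand of that exon. Pvt1 is known for its place beside Myc, with which it is often amplified in tumours, and for reported roles in the stability of the MYC protein and in competition for enhancers.

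The series holds 3 samples of C2C12 myoblasts at passages 8 to 14. Cells for capture were fixed with 1% glutaraldehyde for 15 min, and their chromatin was sheared to 50 to 130 bp. The sample called odd was captured with 400 pmol of 9 odd probes and the sample called even with 400 pmol of 9 even probes. The last sample was unprecipitated DNA of about 400 bp, which served the authors as background. Per the labels the captures came from different biological samples, although both titles carry replicate number 1. There was 1 sample per probe set, so no value below has a replicate error and no difference between probe sets could be tested. The odd library kept 14203 tags after duplicate removal (1.08% of its 1310893 tags) and the even library 12715 (0.940% of 1352067). A pileup is the number of tags, each extended by the authors to 147 bp, that cover the summit of a peak. Only 1 tag was kept per position, so a pileup counts distinct tag positions and not molecules. Confidence intervals on pileups cover counting error only.

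Peak positions are described below by the probe sites, so the probes at those places are shown first. All 18 probes matched a RefSeq transcript of Pvt1 with 9 exons and 3076 nt, and along it odd and even sites alternated in all 17 neighbouring pairs, spaced 100 to 496 nt apart with a median of 131. Exons are numbered below by that transcript. In each probe the capital marks the 5′ base, from which distances are counted.
odd 1, exon 1: Tctgggaatgctaagttcgt
odd 3, exon 4: Cttgaattctcaatggccac
even 3, exon 5: Ccttctggaacgcttaaagg
odd 4, exon 6: Agacttccatctttgctatt
even 4, exon 7: Tcttagggtcagtatcatgg
odd 8, exon 9: Tagcagagtggttcaaaggc
even 8, exon 9: Agaatttcagagggcactcg
odd 9, exon 9: Agacttagggcatacaggta
even 9, exon 9: Taaagcatccagggcagaac
Probe even 2 was found in the spliced RNA only. Its target, with the bases of exon 2 in lower case and those of exon 3 in capitals, was split 10 and 10 across the junction.
target of even 2: cctctaaaatAGAGCCGAGT
The other 17 probes each matched the gene in full once.

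Peaks in Pvt1 lay at exons that hold a probe site. The annotation (GENCODE mouse release 21) gives 10 Pvt1 transcripts, whose exons merge into 21 stretches covering 2.06% of the gene. Odd peaks touched 7 of these 21 and even peaks 6, and the 6 were among the 7. Over the merged exons of all genes, 0.0278% were touched by an odd peak, 0.0203% by an even peak and 0.0124% by both. Of the 7 merged exons with a probe site, 7 had an odd peak and 6 an even peak. Of the 14 without one, 0 had a peak in either list. Those 14 include exons 3 and 8 of the 9-exon transcript and the 6 merged exons downstream of the last peak. Sites here are full matches in the gene, so the 10 bases of the even 2 target in exon 3 do not count. The final 127148 bp of the gene, 37.4% of its length, carried no listed peak and no probe site.

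The transcripts differ in how many probes they could bind. Among the annotated transcripts, Pvt1-203 (2798 nt, 7 exons) held 16 probe sites and touched 7 odd and 8 even peaks. Pvt1-201, which alone contains exon 4, held 9 sites. Pvt1-202, which runs into the distal exons, held 6 sites, and its exons with peaks were 4 of 10 in both lists. Exons 6 and 7 overlapped exons of 9 of the 10 annotated transcripts and exon 2 of 6, while exon 4 occurred in 1. Most peaks therefore cannot be assigned to a single transcript. The peak at exon 4 touched an exon of 1 annotated transcript, but that exon is also in the 9-exon RefSeq transcript. Only 29.9% of that peak was exonic, and which transcript was captured was not tested.

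The first exon gave a peak of 7 tags in each library. The odd peak spanned chr15:62037974-62038124 (151 bp) and the even peak began at the same base and was 155 bp long. Its only probe is odd 1, so in the even library this peak lay over no even site. The peak started 12 bp upstream of the annotated start of Pvt1 and thus reached 12 bp into the interval towards Myc. The sequence of the odd peak follows, with the probe site in capitals.
exon 1 peak, plus strand: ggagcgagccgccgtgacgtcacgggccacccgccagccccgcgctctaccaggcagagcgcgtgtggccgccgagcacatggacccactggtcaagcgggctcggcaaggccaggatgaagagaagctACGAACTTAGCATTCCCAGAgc
The site stands 2 bases from the right end of the peak, and the rest of the peak lies to its left. Scaled to depth, the peak was 4.93 tags per 10000 tags kept in the odd library and 5.51 in the even library.

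Exon 2 holds a site of each set, even 1 and odd 2. The odd library had a peak of 9 tags and 288 bp (62107087 to 62107374), and the even library one of 6 tags and 284 bp (62107088 to 62107371). Both summits, at 62107229 and 62107228, fell inside the 19 bp where tags extended from the 2 probe sites would overlap (62107216 to 62107234). The junction probe even 2 binds the end of exon 2, 82 bp beyond the odd peak and 85 bp beyond the even peak. From its other end, in exon 3, the nearest odd peak lay 10646 bp away and the nearest even peak 26096 bp away. This junction is present in spliced RNA and not in genomic DNA, and why even 2 had no peak was not tested.

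Exon 4 was the only exon with a peak in a single library. The odd library had 3 tags over 147 bp (62159894 to 62160040; Poisson 95% interval 0.619 to 8.77), at probe odd 3, and the even list had no peak there. A height of 3 tags is the lowest in the odd list, and the lowest in the even list was 2. At this depth an absence in the even list is not distinguishable from a few tags that missed the threshold. The peak ends exactly at the 5′ base of the probe.
exon 4 peak, plus strand: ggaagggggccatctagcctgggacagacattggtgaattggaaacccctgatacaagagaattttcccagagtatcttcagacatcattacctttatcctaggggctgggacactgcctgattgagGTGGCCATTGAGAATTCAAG

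Exon 5 shows the reverse arrangement. Its only probe is even 3, and both libraries had the identical peak of 3 tags from 62175344 to 62175490. In the odd library this peak lay over no odd site, with the nearest odd probe end 15450 bp away. The exon is 82 bp long and the site sits at its left end, so 24 of the 147 bp of the peak (16.3%) were exonic and the summit at 62175401 was intronic. The sequence, with the 19 bases of the site that lie inside the peak in capitals, ends 1 base short of the probe.
exon 5 peak, plus strand: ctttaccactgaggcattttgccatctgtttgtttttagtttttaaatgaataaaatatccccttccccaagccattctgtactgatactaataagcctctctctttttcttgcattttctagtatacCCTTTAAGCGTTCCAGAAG

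Exons 6 and 7, separated by a short intron, carry odd 4 and even 4. The odd list had 1 peak of 390 bp (62242104 to 62242493) and 13 tags with its summit at 62242464, at the even 4 site. The even list had a pair of peaks instead, 6 tags at 62242104 to 62242254 over odd 4 and 12 tags at 62242336 to 62242494 over even 4. The even peaks were 81 bp apart. By default the caller joins stretches separated by no more than the tag size, which was 105 bp in the odd library and 54 bp in the even library. Whether this accounts for the different count of peaks was not tested, as the lists give no height between summits. The outer ends agreed to within 1 bp. The summit lay at the even site in the odd library too. In the even library the peak over odd 4 had its summit of 6 tags at 62242154. That base is intronic and lies left of the odd 4 site (62242232 to 62242251).

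Exon 9 is 1819 bp long and holds 10 sites, 5 of each set. Peaks covered 68.7% of it in the odd library and 68.5% in the even library, in 3 stretches each. The first stretch, at odd 5, had 4 tags (62249289 to 62249436) and 3 tags (62249289 to 62249435). The middle stretch covered 6 sites from even 5 to odd 8, with 16 tags over 813 bp in the odd library and 9 tags over 811 bp in the even library. Its summit differed between libraries: 62249833 in the odd library, where the windows of odd 6 and even 6 overlap, and 62250298 in the even library, inside the window of odd 8 and of no other probe, the window being the 147 bp that end at the 5′ base of a probe. That summit lay to the left of the odd 8 site itself (62250348 to 62250367).

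The last stretch of exon 9, over odd 9 and even 9, was the highest peak of each whole list, with 22 tags (Poisson 95% interval 13.8 to 33.3) and 20 tags (12.2 to 30.9). Both libraries gave the same start, end and summit (62250661, 62250948 and 62250805). The summit fell in the 16 bp where tags extended from both sites would overlap (62250794 to 62250809). The sites are in capitals, odd 9 first.
exon 9 highest peak, chr15:62250661-62250948, plus strand: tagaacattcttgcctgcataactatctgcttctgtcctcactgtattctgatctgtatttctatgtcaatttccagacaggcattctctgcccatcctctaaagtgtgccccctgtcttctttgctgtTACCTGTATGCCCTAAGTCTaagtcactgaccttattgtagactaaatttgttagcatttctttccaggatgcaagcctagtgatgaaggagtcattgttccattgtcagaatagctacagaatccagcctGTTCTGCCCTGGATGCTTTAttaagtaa
Between the middle and the last stretch lies even 8 (62250463 to 62250482), which had no peak in either library although it matches the exon in full. Peaks covered 31.3% of its window in the odd and 29.9% in the even library. Its base composition was 50.0% GC, and that of the 18 probes ranged from 35.0% to 55.0%. Why this site had no peak was not tested.

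**Figure D1:**
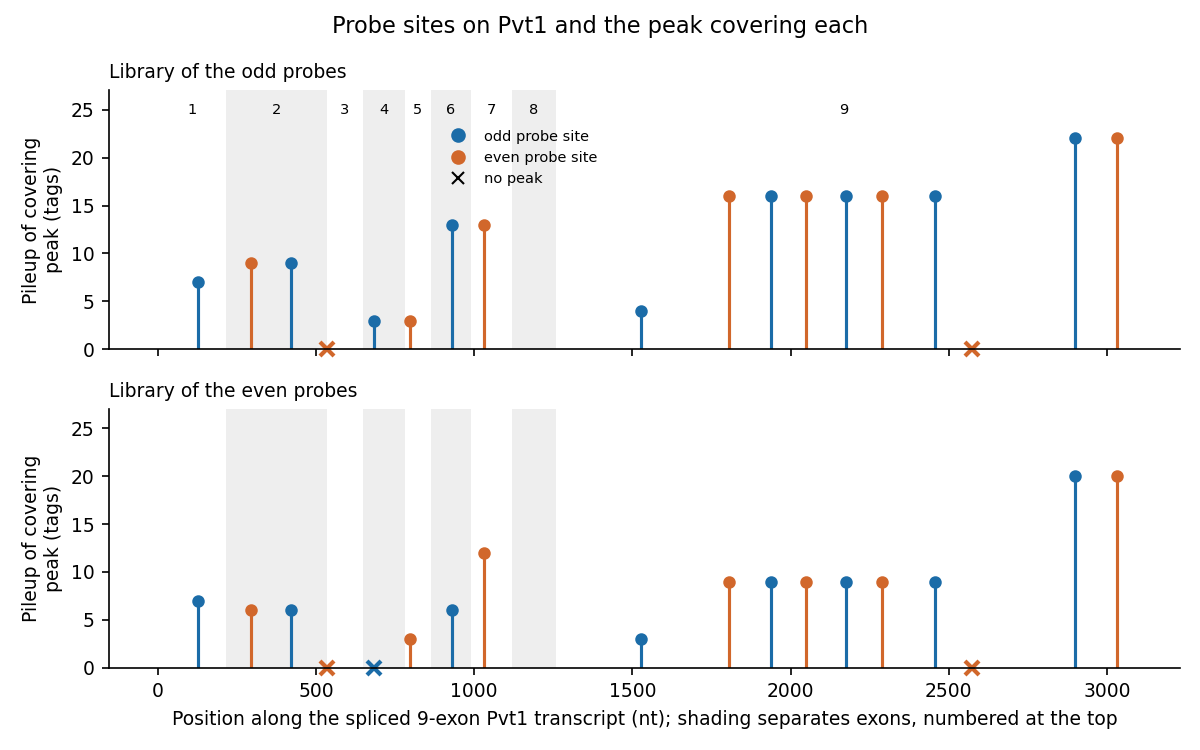
Pileup (tags) of the peak covering each of the 18 probe sites, by position along the spliced 9-exon transcript (nt), for the odd library (top) and the even library (bottom); colour gives the probe set and a cross marks a site without a peak. Lines of both colours stand in both libraries, and crosses stand at even 2 and even 8 in both and at odd 3 in the even library; sites under 1 peak share its value.

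**Figure D2:**
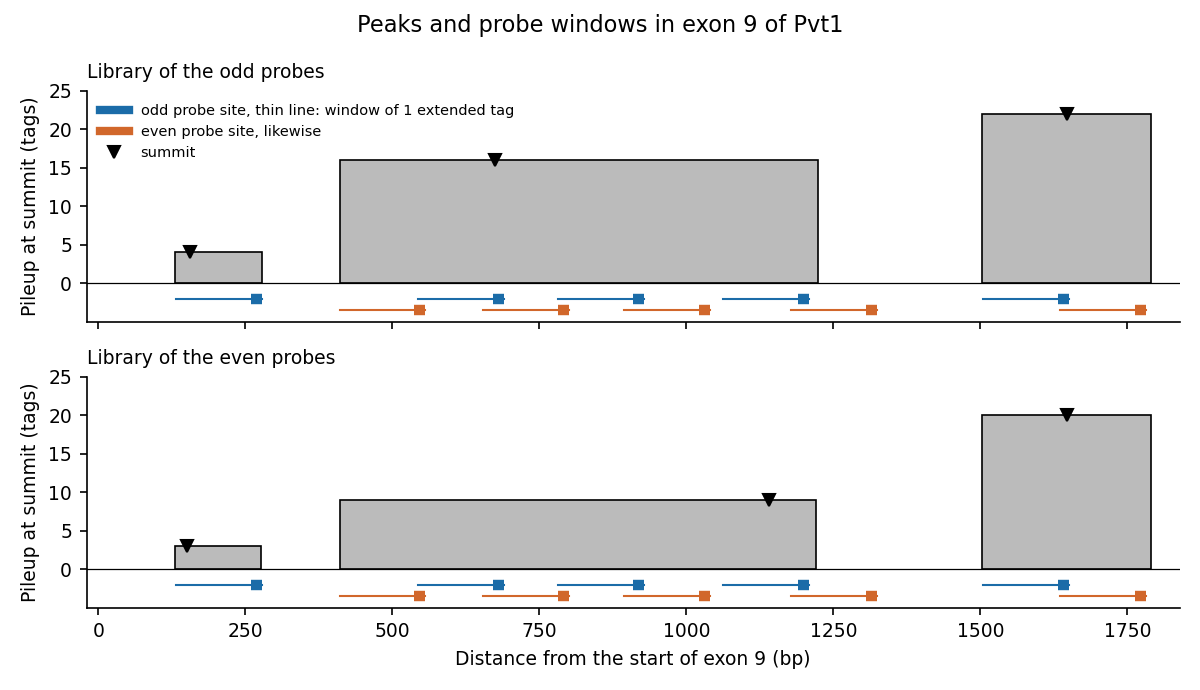
Peaks in exon 9 as boxes from start to end, with the height of the box set to the pileup at the summit (triangle), by distance from the start of the exon (bp); squares below mark probe sites and thin lines the 147 bp to the left of each probe 5′ end. The 3 boxes have nearly the same ends in both libraries, the middle box is 16 tags high with odd and 9 with even probes, and the site of even 8, between the middle and the right box, has no box; the lists give no height away from the summit.

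Each library had peaks at sites of both sets. Odd peaks covered 9 of 9 odd sites and 7 of 9 even sites. Even peaks covered 8 of 9 odd sites and 7 of 9 even sites. Even 2 matches the spliced RNA only and has no window in the gene, which leaves 9 odd and 8 even windows. In all, 15 of the 18 sites were covered in both libraries and 2, even 2 and even 8, in neither. In the even library, 3 of 8 peaks contained no even site, and 4 of 8 summits lay in windows of odd probes only. In the odd library the matching counts were 1 of 8 peaks and 2 of 8 summits. Of the even peak bases, 46.9% lay in the windows of odd probes alone and 42.0% in those of even probes alone. For odd peak bases these shares were 48.6% and 38.0%.

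Heights varied more along Pvt1, from 3 to 22 tags in the odd list, than between libraries at 1 place. Where peaks of the 2 lists overlapped or flanked each other they were treated as 1 place, which gave 8 places, 7 of them with a peak in both lists. The odd pileup was higher at 5 of the 7 and equal at 2. After division by the tags kept, the ratio of odd to even ranged from 0.895 to 1.59 with a median of 0.985, and it was above 1 at 3 places and below 1 at 4. The largest ratio, 1.59, was in the middle of exon 9, where 11.3 tags per 10000 kept stood against 7.08. The next was 1.34 at exon 2. At the end of exon 9 the values were 15.5 and 15.7. Over the 7 places the odd library held 74 of 134 summed summit tags, or 55.2%, beside 52.8% of all tags kept. With 1 library per set, these shares describe the libraries and not the probe sets.

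**Figure D3:**
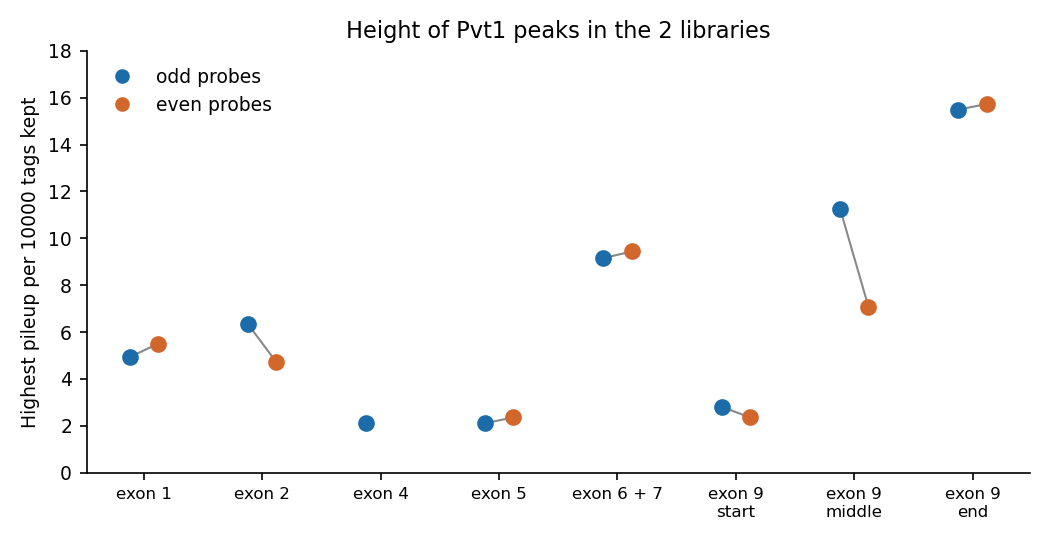
Highest pileup per 10000 tags kept at each of the 8 places in Pvt1, for odd and even probes, with lines joining the values of 1 place; there is 1 sample per probe set and no error bar. The middle of exon 9 differs most (11.3 and 7.08), the end of exon 9 is highest in both (15.5 and 15.7), and exon 4 has an odd point only.

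Peak ends were nearly the same in both libraries. At all 7 shared places the leftmost start differed by at most 1 bp and was the same base at 6, and the rightmost end differed by at most 4 bp. Shared bases made up 90.1% of the odd peak length in Pvt1 (2372 bp) and 99.8% of the even (2142 bp). Outside Pvt1 some peaks agreed as closely, such as that at 61624020 to 61624169 on chromosome 15 in both lists. Others did not, such as that on chromosome 5 ending at 119821313 (odd) and 119821362 (even).

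The ends also stood close to the probes. A tag that starts at the 5′ base of a probe on the strand of the probe and is extended to 147 bp would cover a window reaching left from that base. Peak starts lay between 2 bp left and 1 bp right of the first such window, with a median of -1 bp in both libraries. Peak ends lay from -1 to 14 bp beyond the 5′ base of the last probe under the peak in the odd library (median 5) and from -1 to 12 bp in the even library (median 7). The window has the length of 1 extended tag, so at peaks over a single window the start and end distances are not independent. Windows of the 17 genomic sites contained 93.8% of the odd and 96.9% of the even peak bases. The last probe under a peak belonged to the other set in 3 of 8 odd and 5 of 8 even peaks. The lists do not give the strand of a tag, and the source of the tags was not tested.

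**Figure D4:**
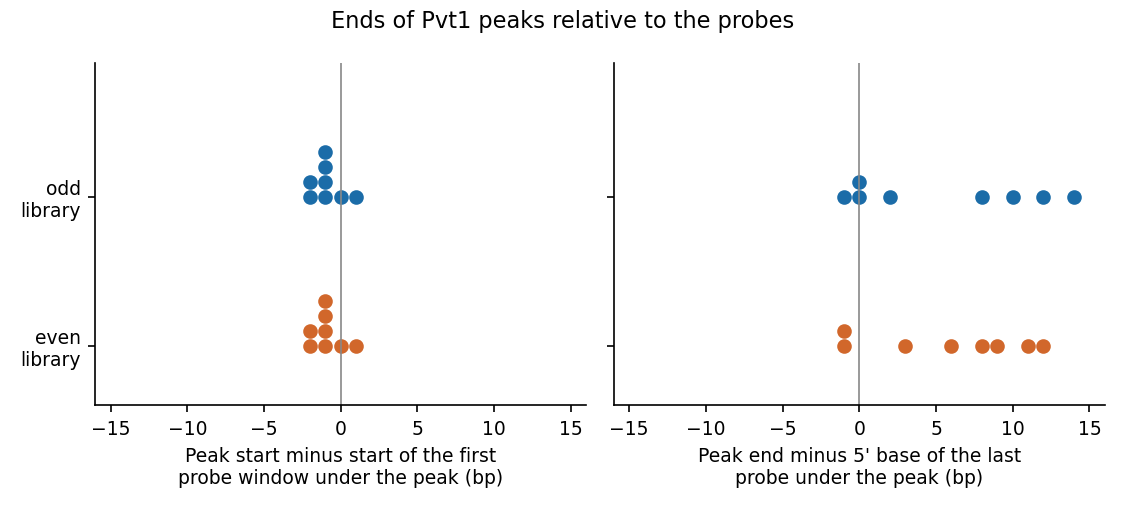
Distance (bp) of the start of each Pvt1 peak from the start of the first probe window under it (left) and of its end from the 5′ base of the last probe under it (right), 8 peaks per library, equal values stacked. Starts lie within 2 bp of 0 and ends between -1 and 14 bp in both libraries.

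At probe sites that stand alone, length was compared with height. For n tags that start at consecutive bases and are extended to 147 bp, the stretch under at least 2 tags is n + 144 bp long. At 3 tags this equals 147 bp, the shortest length in either list (472 odd and 325 even peaks), so a match at 3 tags carries no information. Of the 4 odd peaks over a single window, the pair above 3 tags, with 4 and 7 tags, had exactly that length. The 3 such even peaks above 3 tags, with 6, 7 and 12 tags, were 1, 4 and 3 bp longer. Elsewhere the median height was 4 tags and the median length 148 bp in both lists, the length of this rule at 4 tags. Such lengths are therefore not particular to probe sites in Pvt1. Peaks also ran past exon ends: 78.9% of odd and 83.1% of even peak bases lay in exons of the 9-exon transcript.

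Pvt1 held the longest peak of each list. The 813 bp and 811 bp peaks were the longest of their lists, and elsewhere the longest was 345 bp among 954 odd and 394 bp among 706 even peaks. Of the peaks over 200 bp, 4 odd and 3 even peaks lay in Pvt1 and 4 odd and 5 even peaks elsewhere. Those in Pvt1 each lay over 2 or 6 probe sites, and Pvt1 peaks over 1 site were 147 to 159 bp long. Median pileup was 8 in Pvt1 and 4 elsewhere with odd probes, and 6.5 and 4 with even probes. The highest pileup elsewhere was 15 and 18. Not all Pvt1 peaks were high: exons 4 and 5 in the odd list, and exon 5 and the start of exon 9 in the even list, had 3 tags, the height of 471 odd and 323 even peaks. GC content in Pvt1 peaks ranged from 36.1% to 67.5% (odd) and 36.1% to 68.4% (even), with the peak at the first exon the highest in both. Elsewhere the median was 42.9% and 43.5%.

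**Figure D5:**
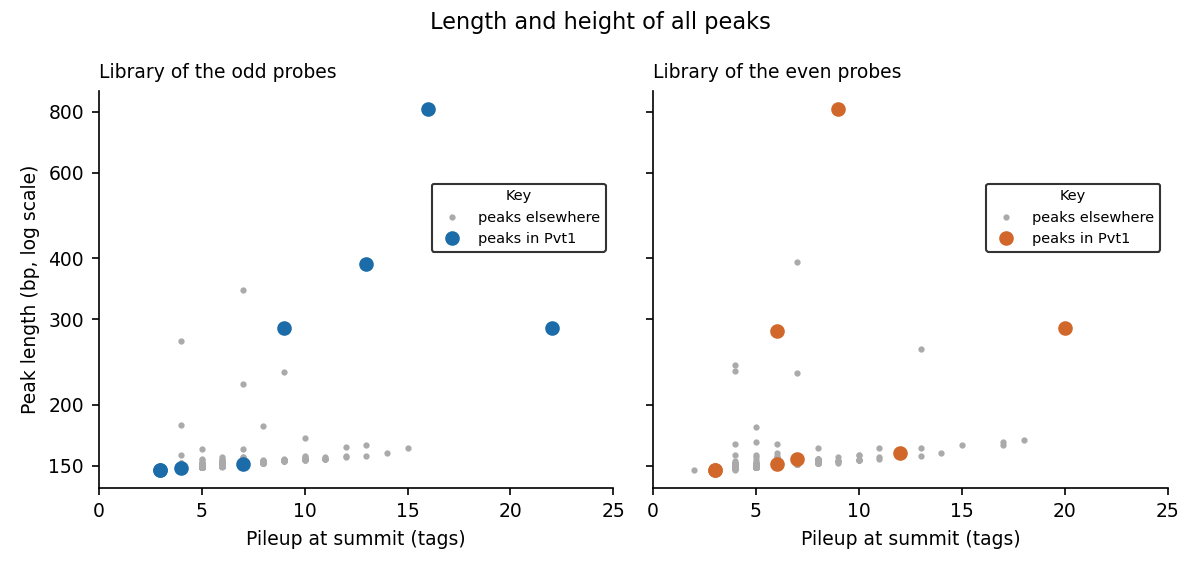
Length (bp, log scale) against pileup at the summit (tags) for all peaks of the odd (left) and even (right) list, with the 8 Pvt1 peaks of each in colour. Pvt1 holds the longest and the highest peak of each list (813 bp and 22 tags, 811 bp and 20 tags). Its odd peak of 390 bp is also longer than any odd peak elsewhere (345 bp), but the even list has 2 peaks there, of 151 bp and 159 bp. The other Pvt1 peaks lie within the range of those elsewhere.

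All Pvt1 peaks held a full probe site, except those at exon 5 in both lists and at the start of exon 9 in the even list, which ended 1 base short of the probe's 5′ base. A run of at least 12 bases shared with any probe was therefore found in 8 of 8 Pvt1 peaks of each list, which adds nothing to the site counts. Elsewhere it was found in 28 of 954 odd peaks (2.94%, Wilson 95% interval 2.04 to 4.21) and in 19 of 706 even peaks (2.69%, 1.73 to 4.16). Probes of the own set gave 11 and probes of the other set 17 of these odd peaks, and for the even peaks the own set gave 9 and the other set 10.

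Myc had no peak. None of its 4 merged exons, its introns or the 47611 bp up to Pvt1 contained a peak of its own in either list. Of all 55413 genes, 0.929% overlapped an odd peak and 0.682% an even peak, and Pvt1 was among them in both lists. The nearest peak downstream of Myc was that at the first exon of Pvt1, 47600 bp away. The nearest one upstream lay 361222 bp before the Myc start. Since the lists hold peaks of at least 3 (odd) or 2 (even) tags, fewer tags at Myc would not be seen.

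Within 1 Mb of Pvt1 the annotation holds 22 other genes, of which Myc is the only protein-coding one. An odd peak in the gene or 2000 bp upstream was found for 6 of them and an even peak for 5, against 1.01% and 0.762% of all genes. Of these, 3 are short non-coding models that sit on Pvt1 exons and share their peaks: Gm27913 on exon 1, Gm27718 on exon 2 and Gm27957 on exon 5. A further 2 non-coding genes upstream of Myc had peaks in both lists. D030024E09Rik had 6 tags at 61624020 to 61624169 in each list, and Gm49497 had 3 tags, at 61187441 to 61187587 with odd and 61187442 to 61187588 with even probes. Gm41335, downstream of Pvt1, had an odd peak of 3 tags. Without the genes inside Pvt1, 3 of 17 neighbours had an odd peak and 2 of 17 an even peak. The share over all genes takes no account of gene length, and some of these neighbours are long (Gm41335 spans 63176838 to 63718289).

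Of the 13 genes of the Myc network, which pair with Myc or with its partner Max or resemble them (Myc, Mycn, Mycl, Max, Mxd1, Mxd3, Mxd4, Mxi1, Mnt, Mga, Mlx, Mlxip and Mlxipl), 0 had an odd peak and 1 an even peak in the gene or 2000 bp upstream, where 1.01% and 0.762% of all genes had one. That was Max, with 5 tags at 76961454 to 76961611 on chromosome 12.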

How the data were processed

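Per the labels' protocols, 2 Pvt1 captures and unprecipitated DNA were read on an Ion Torrent PGM, with TMAP alignment to mm10 (GRCm38). Per the submitters' processing notes, peaks were called with MACS2 2.1, and per the file headers separately for each capture against unprecipitated DNA (5104779 tags kept), with tags extended to 147 bp, a q-value cutoff of 0.05, an effective genome size of 90000000 and 1 tag kept per position. The deposited lists give a pileup (signal, in tags), a fold enrichment (ratio), and -log10 p and q values whose column headers are damaged. Fold and -log10 p are not described here, and -log10 q served as a filter in an alternative.

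Peak positions were compared with GENCODE release 21 and RefSeq (GRCm38.p6) by overlap of at least 1 bp, and probes from the labels were placed by full match (Python 3.11.15, pysam 0.24.0, scipy 1.17.1). Chromosome M was left out of the gene annotation. No peak passed the end of a chromosome. Overlap counting was tested on simulated intervals. Genes described with values are Pvt1, Myc, and those with a peak among genes overlapping Pvt1, the Myc network and neighbours within 1 Mb; the other network genes are named as the list, and Ythdf3 was chosen after its values were seen. Members and lists were chosen with earlier results of these data known. Alternatives were other peak filters, overlap rules, exon sets, windows and scalings. With 1 sample per probe set no test was made.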

Additional observations from a re-analysis of the deposited data

How the results depend on the processing

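For 15 counts and values, 44 alternatives were run, 3 of them chosen after seeing the data (even peaks joined over the odd tag size, which gave 7 peaks in place of 8, and end distances at peaks over a single probe window, with medians of 0 bp odd and 3 bp even). A total of 36 stayed within 1.5 times a count or within the spread or interval of a value. With peaks of at least 5 tags only, 5 of 8 odd peaks in Pvt1 were left. Requiring 50% of a peak inside an exon left 3 odd exons in place of 7, since extended tags run into introns and a peak over 2 exons fails for both. Measured to the nearest probe of the own set only, the median distance of peak ends was 13 bp in the odd and -52 bp in the even list, because several peaks end at probes of the other set. Peaks elsewhere sharing a run with a probe numbered 142 odd and 97 even at 10 bases, and 7 odd and 8 even at 15 bases. Depth limits all heights: the lowest listed pileup was 3 tags in the odd and 2 in the even list. No paired analysis was possible because each probe set has 1 sample.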

Other observations

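Peaks outside Pvt1 that share a run of at least 15 bases with a probe numbered 7 in the odd and 8 in the even list. In 6 of the 7 and 7 of the 8, the peak edge on the side of the probe's 5′ end lay within 20 bp of that end, the distance ranging from 5 to 37 bp in the odd and from 1 to 37 bp in the even list. Apart from an odd peak on chromosome 13 and even peaks on chromosomes 1 and 2, these peaks overlapped between the lists. The odd and even counts are therefore not independent. Of the 7 odd peaks, 3 matched an odd and 4 an even probe, and of the 8 even peaks, 4 matched each. One of them lay in Ythdf3, which encodes a reader of methylated RNA, with 7 odd tags (16210385 to 16210539, chromosome 3) and 3 even tags (16210392 to 16210538) at 19 bases shared with odd 2. The longest of them, on chromosome 5 between genes, had 7 tags in both lists over 345 bp (odd) and 394 bp (even). These genes and places were chosen after their values were seen.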
